A study of Mus musculus with 12 samples.

Results

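The carboxylesterase genes of the mouse lie in tandem arrays on chromosome 8, and this account follows the binding of CTCF at the 10 listed members: Ces1d, Ces1e, Ces1f and Ces1g in the Ces1 cluster, and Ces2a, Ces2b, Ces2c, Ces2e, Ces2g and Ces2h in the Ces2 cluster. The binding map comes from ChIP-seq (chromatin immunoprecipitation followed by sequencing) of the whole liver of wild-type (WT) male C57BL6/Ncrl mice, aged 3 to 4 months and kept on normal chow. One group had free access to food and was harvested at ZT16 (zeitgeber time, hours after lights on), and the other had been starved for 24 h and was harvested at ZT13. Feeding state and harvest time therefore cannot be told apart. Each group had 3 ChIP libraries, each with its own list of called peaks; whether replicates are different animals is not stated in the labels. All of the liver's cell types contributed to each list, and peak lists hold no expression values by which the tissue could be checked.

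Joining all peaks of the 6 lists that shared 1 bp or more gave 76061 sites. The members are the 25 sites that lay between 20 kb before the first and 20 kb beyond the last listed gene of either cluster, in genome build mm10. The Ces1 window (chromosome 8, 93146072 to 93357209, 211 kb) held 9 sites and the Ces2 window (104714003 to 105040410, 326 kb) held 16. Sites are numbered below along each window, so that Ces2 site 15 is the next to last of its window. The genes were chosen by the calls and score ranks of these 6 lists, in particular those of a site beside Ces2h, and the sites by their position, so every fed and starved value at these sites is a description, and none was tested.

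Carboxylesterases are enzymes of the endoplasmic reticulum that split ester and amide bonds in drugs, dietary compounds and lipids, and the liver is among their main sites of expression. Ces1d, also called triacylglycerol hydrolase, takes part in the release of stored triglyceride for the assembly of very low density lipoprotein. CTCF is a zinc finger protein that stops cohesin as it extrudes chromatin, and its sites mark loop anchors and insulators between neighbouring genes.

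Peaks overlapped the promoters of Ces1g and Ces2h, and these are shown for that reason. Of the 10 genes, 7 had a promoter in the RefSeq table of GRCm38.p6, the assembly behind mm10 (250 bases before to 50 after the gene's start); Ces1d, Ces1f and Ces2b did not. The 250 bases before the start of Ces1g (chr8:93337210-93337459, minus strand) and of Ces2h (chr8:105000580-105000829, plus strand) read as follows, from 5′ to 3′, with the bases under a merged site in capitals.
Ces1g: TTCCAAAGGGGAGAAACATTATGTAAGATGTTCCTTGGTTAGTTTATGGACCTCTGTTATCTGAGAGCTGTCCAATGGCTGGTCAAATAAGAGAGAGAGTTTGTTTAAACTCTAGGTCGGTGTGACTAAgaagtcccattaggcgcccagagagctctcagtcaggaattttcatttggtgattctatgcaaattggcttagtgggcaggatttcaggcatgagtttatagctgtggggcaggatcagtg
Ces2h: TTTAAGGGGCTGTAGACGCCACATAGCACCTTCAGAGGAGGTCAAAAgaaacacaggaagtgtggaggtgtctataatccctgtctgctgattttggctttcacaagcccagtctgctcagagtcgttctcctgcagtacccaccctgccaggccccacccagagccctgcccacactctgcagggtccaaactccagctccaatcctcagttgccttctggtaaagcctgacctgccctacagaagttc
The capitals cover 129 bases at Ces1g, under Ces1 site 9, and 47 bases at Ces2h, under Ces2 site 12. In both promoters the overlap lay at the end farthest from the gene's start. A search of both strands for the 12-letter core of the CTCF consensus found 0 matches in the promoters of any of the 7 genes; 0.551% of 27025 promoters of 300 bases in the table held a match. Fed sites, called in all 3 fed libraries, overlapped 17.9% of the promoters in the table and 1 of the 7 listed ones, that of Ces1g. The peaks at Ces2e (Ces2 site 9) and at the start of Ces1e (Ces1 site 5) came close without overlap, at 145 and 161 bp from the promoters. Ces2 site 9 was called in fed libraries 1 and 3 only. Ces1 site 5 was called in fed library 3 alone, at the 1.22 percentile of that list's scores.

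**Figure D1:**
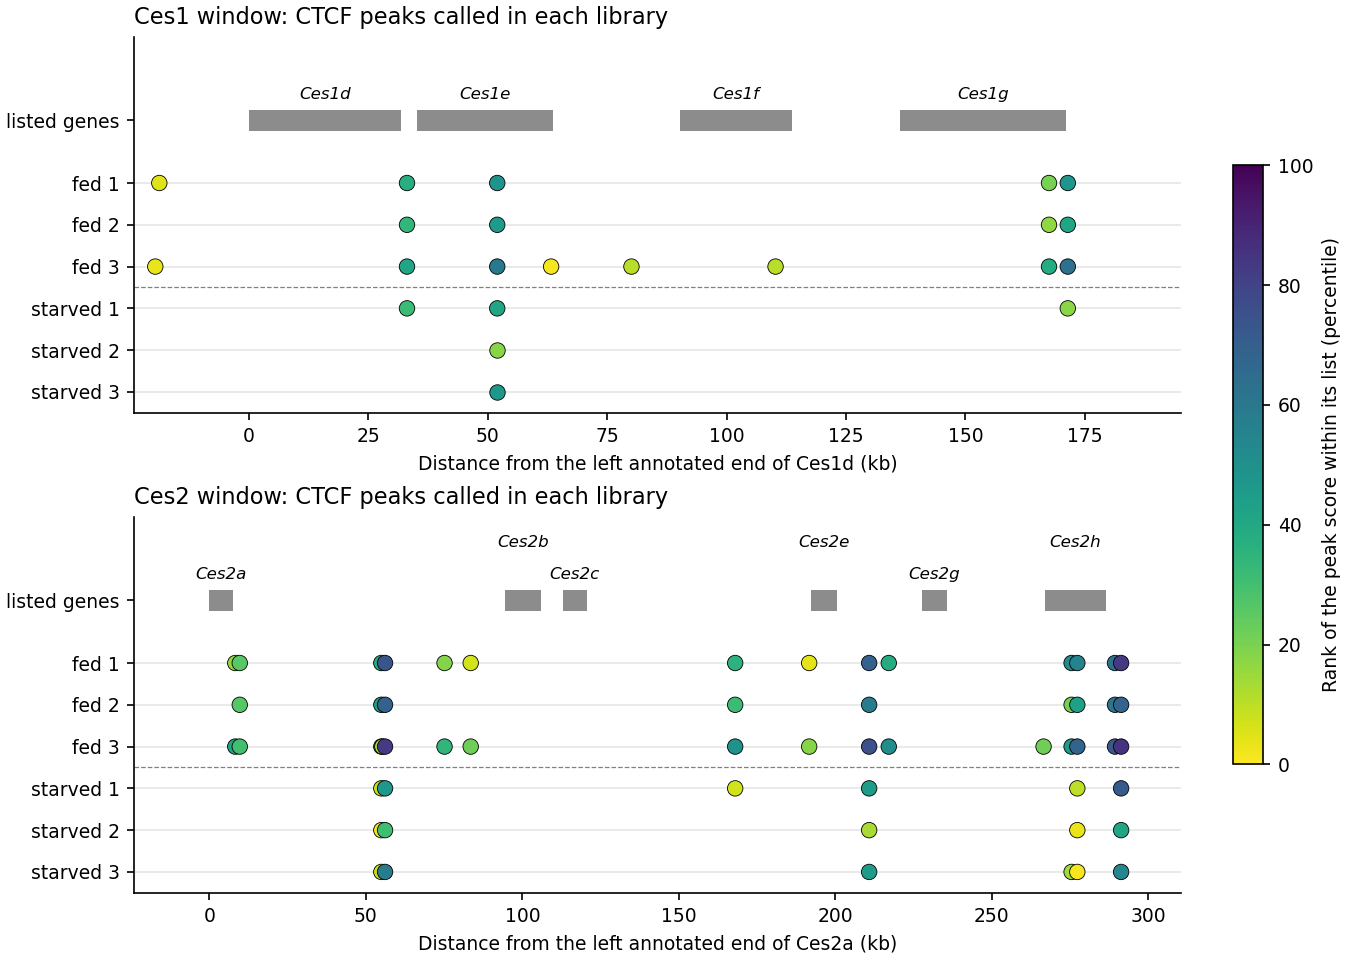
Positions of CTCF peaks in the Ces1 window (top) and the Ces2 window (bottom), in kb from the left annotated end of the first listed gene, with 1 row for each library and grey bars for the listed genes. Each point is a site with a peak in that library and its colour is the percentile of the peak's score within its own list. Ces1 site 4, inside Ces1e, is the only column of its window with points in all 6 rows, and the Ces2 window has 5 such columns.

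Both windows held more sites in each fed than in each starved library. The fed lists had 56103, 49030 and 74950 peaks in all and the starved lists 30752, 23926 and 29866, so the fed lists were longer throughout. In the Ces1 window, peaks were called at 5, 4 and 8 sites in fed 1, fed 2 and fed 3, and at 3, 1 and 1 sites in starved 1, starved 2 and starved 3. In the Ces2 window it was 14, 9 and 16 sites in the fed and 6, 5 and 6 in the starved libraries. The groups did not overlap in either window. Set against list length, both windows together had 3.39, 2.65 and 3.20 sites per 10000 peaks in the fed and 2.93, 2.51 and 2.34 in the starved lists, and here the groups overlapped.

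**Figure D2:**
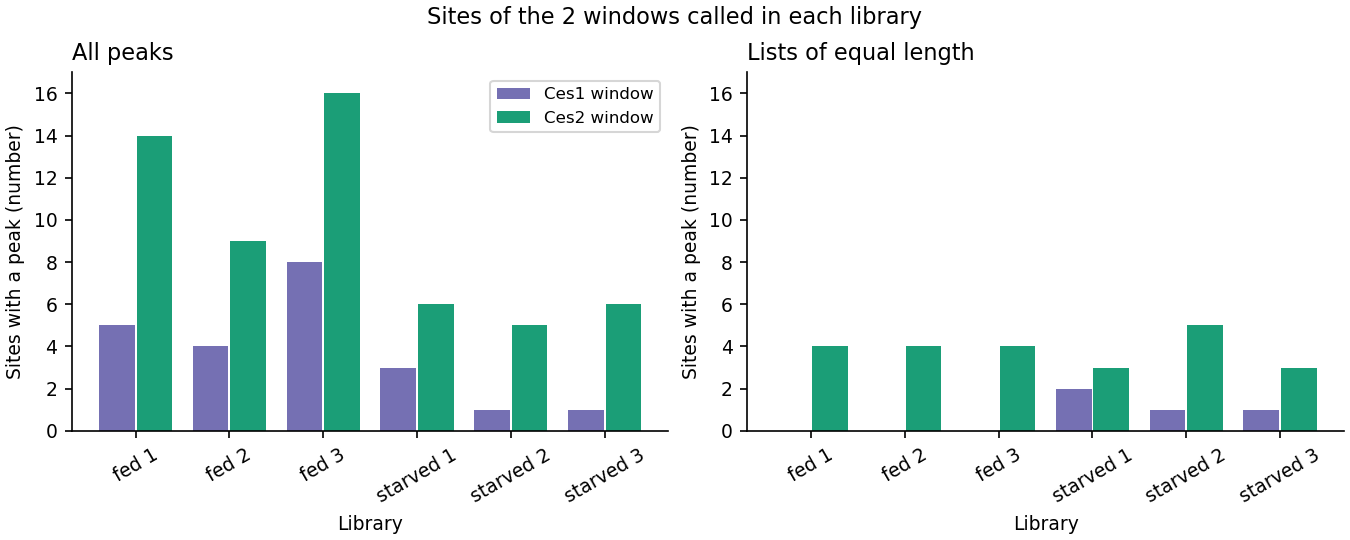
Number of sites with a peak in the Ces1 and Ces2 windows in each library, from all peaks (left) and from the 23926 best-scored peaks of each list (right). With lists of equal length, the Ces1 window has 0 sites in each fed list and 1 or 2 in the starved lists, and the Ces2 window has 4 sites in each fed list and 3 to 5 in the starved lists.

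Of the 25 sites, 13 were fed sites, 4 in the Ces1 and 9 in the Ces2 window; over the genome 59% of sites were. In the Ces1 window 1 of the 4 fed sites had no starved peak and 1 was called in all 3 starved libraries. In the Ces2 window it was 2 and 5 of 9. Over all 44909 fed sites, 29.1% had no starved peak and 49.3% were called in all 3 starved libraries, against 3 and 6 of 13 here. The counts depended on single libraries: without fed 2, the Ces2 window had 14 fed sites, 7 of them with no starved peak, and without starved 1 the Ces1 window had 3 fed sites with no starved peak. The median rank of the 13 fed sites within the fed lists was 50.5 (percentile of the peak score, where 100 is the best of a list), against 61.05 over all fed sites.

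The other 12 sites were called in 1 or 2 fed libraries, and 0 of them had a starved peak. Over the genome, 1.99% of sites called in 1 or 2 fed libraries had one. In the Ces2 window 5 of these sites were shared by fed 1 and fed 3 and were missing from fed 2, the shortest fed list. Fed 3, the longest list, held 6 of the 12 alone. The shares of sites with these patterns of calls over the genome were not computed. Ces1 site 2, in the pseudogene Gm45910, (93147209 to 93147393) was called in fed 1 alone. The best-ranked of the sites with partial calls was Ces2 site 11, inside the unlisted gene Ces2f (104950919 to 104951193), at ranks of 38.8 in fed 1 and 51.3 in fed 3. Ces2 site 6, between genes (104808928 to 104809308), ranked at 18.6 and 34.6 in the same libraries. In the Ces1 window the best-ranked were sites 7 (93276251 to 93276408) and 6 (93246061 to 93246251), each at 10.8 in fed 3 alone.

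Within the Ces1 cluster, Ces1e carried the 1 site of the window that was called in all 6 libraries. Ces1e encodes egasyn, which holds beta-glucuronidase in the endoplasmic reticulum. Its site (Ces1 site 4, 93217863 to 93218253) lay inside the gene, with its midpoint 11573 bp from the nearer end; whether it is exonic or intronic was not analysed here. It ranked at 48.1, 45.6 and 59.7 in the fed lists and at 41.3, 17.8 and 46.5 in the starved lists. Starved 2 was the lowest, and starved 3 lay above fed 2. Because the lists differ in length, such ranks show order within a list and no change in binding.

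Ces1d, the triacylglycerol hydrolase, and Ces1e shared the site between them (Ces1 site 3, 93198933 to 93199395). It lay 1129 bp beyond Ces1d, which itself held 0 sites over its 31.7 kb. This intergenic site ranked at 37.2, 34.2 and 41.03 in the fed lists and at 32.0 in starved 1, with no peak in starved 2 or starved 3.

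Ces1g, which has been linked to hepatic lipid metabolism, had 2 fed sites near its start. Ces1 site 9 (93337331 to 93337708), over the far part of the promoter shown above, ranked at 47.5, 40.99 and 63.02 in the fed lists and at 17.3 in starved 1, with no peak in the other 2 starved libraries. Ces1 site 8 (93333407 to 93333764), inside the gene and 3566 bp away, ranked at 20.4, 16.5 and 38.4 in the fed lists and was called in no starved library. It was the lowest-ranked of the 13 fed sites, with a mean of 25.1. Ces1f, a second triacylglycerol hydrolase of the liver, held 1 site, called in fed 3 alone at a rank of 10.8, and its nearest fed site was 37.98 kb away.

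The Ces2 cluster had its sites mostly between genes: 13 of its 16 lay in no annotated gene, against 3 of 9 in the Ces1 window. The windows also differed in gene content. The 4 listed Ces1 genes were 23.5 to 34.8 kb long in a window of 211 kb. The 6 listed Ces2 genes were 7.42 to 19.6 kb long in a window of 326 kb, and so took up a smaller part of it. The share of sites in no gene over the genome was not computed. Ces2a had a pair of sites beyond its end. Ces2 site 2 (104743514 to 104743863) was a fed site at ranks of 26.01, 26.4 and 30.3 with no starved peak, and Ces2 site 1 (104742101 to 104742402) was called in fed 1 and fed 3. Between Ces2a and Ces2b, Ces2 site 5 (104789722 to 104790496) was called in all 6 libraries at ranks of 73.4, 68.5 and 82.5 in the fed and 47.01, 30.8 and 58.4 in the starved lists. Ces2 site 3 (104788676 to 104789166) beside it was also called in all 6, at ranks of 38.3, 44.6 and 44.1 in the fed and 8.57, 1.96 and 8.09 in the starved lists. Ces2 site 4 lay between them, 1 bp from site 3 and 408 bp from site 5, and was called in fed 3 alone. Fed 3 thus had separate peaks at sites 3 and 4, which the merging rule kept apart.

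Ces2b, Ces2c and Ces2g, esterase genes of the middle of the cluster, had 0 sites within 5 kb of their ends in any library. The pair Ces2b and Ces2c, together with the pseudogene Ces2d-ps, lay in the longest stretch of the window without a site, 84.2 kb between Ces2 sites 7 and 8. In the Ces1 window the longest such stretch was 57.0 kb, between sites 7 and 8. Over the genome the median distance between neighbouring sites was 9.79 kb. At least as long as the stretch in the Ces2 window were 7.72% of the distances, and 12.2% for that in the Ces1 window. These shares count single distances, whereas each stretch is the longest of its window, so neither stretch is shown to be unusual. Ces2e had 1 site near its start, Ces2 site 9, called in fed 1 and fed 3 at ranks of 4.28 and 18.2. Ces2 site 8 (104901811 to 104902150), far from any listed gene, ranked at 35.9, 31.7 and 49.1 in the fed lists and at 6.96 in starved 1 and was not called in the other 2 starved lists. Between Ces2e and the unlisted Ces2f, Ces2 site 10 (104944525 to 104945052) was called in all 6 libraries, at ranks of 69.5, 58.97 and 75.7 in the fed and 45.1, 13.3 and 45.2 in the starved lists.

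Ces2h, the last listed gene, had the best-ranked site of the listed genes. It held 2 fed sites inside the gene and 2 beyond its end, and Ces2 site 12 at its start was called in fed 3 alone at a rank of 21.9. Inside the gene, Ces2 site 13 (105009285 to 105009661) ranked at 52.4, 20.9 and 45.4 in the fed lists and at 14.03 in starved 3, with no peak in starved 1 or starved 2. Ces2 site 14 (105011097 to 105011509) was called in all 6 libraries, at ranks of 55.2, 42.9 and 67.9 in the fed and 9.89, 3.34 and 1.44 in the starved lists. With Ces2 site 3 it was among the 34 sites of 22131 called in all 6 libraries (0.154%) whose starved ranks were all below 10. The limit of 10 was not a planned setting, and the share was not matched for fed rank. It therefore does not show these sites to be unusual.

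Beyond the end of Ces2h, sites 15 and 16 stood 1462 bp apart and differed in their calls. Ces2 site 16 (105025007 to 105025576), 4597 bp from the gene, had the highest fed rank of the 25 sites. It ranked at 83.5, 68.2 and 85.6 in the fed lists and at 72.2, 40.7 and 53.9 in the starved lists. Starved 1 lay above fed 2 here. Ces2 site 15 (105023139 to 105023544), 2729 bp from the gene, ranked at 61.7, 61.1 and 72.3 in the fed lists and was called in no starved library. Among all 13072 fed sites with no starved peak it had the tenth highest mean fed rank (place 10, mean 65.0), and this is how the locus came into view. Of the 5616 fed sites with a mean rank of 60 to 70, 1.37% had no starved peak. In the narrower range of 65 to 70, 99.6% had a peak in any starved library.

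**Figure D3:**
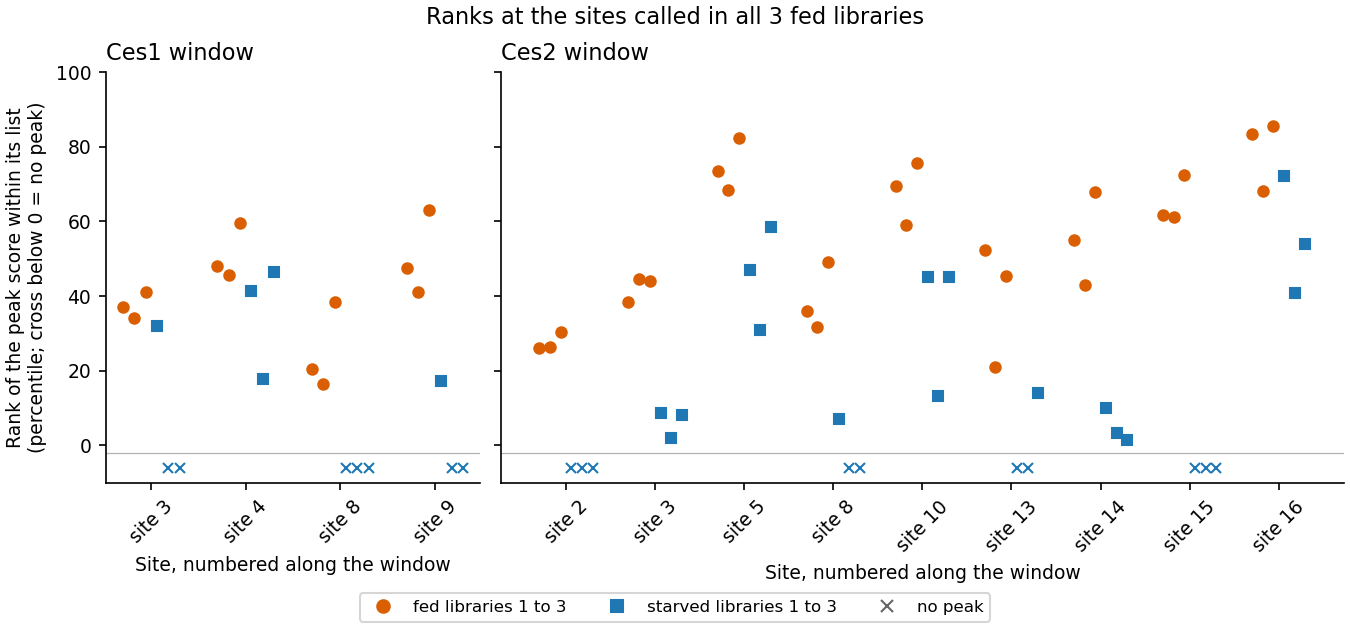
Rank of the peak score within its own list (percentile) at the 13 sites called in all 3 fed libraries, with circles for the fed and squares for the starved libraries, left to right from library 1 to 3, and a cross where no peak was called. Ces2 sites 3 and 14 have starved ranks of 1.44 to 9.89, and Ces2 site 15 has fed ranks of 61.1 to 72.3 and crosses for all 3 starved libraries.

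At the lowest and the highest fed ranks, the calls after starvation followed the rank as they did over the genome. Ces1 site 8 and Ces2 site 2, at mean fed ranks of 25.1 and 27.6, had no starved peak, like 87.7% of all fed sites with a rank of 20 to 30. Ces2 sites 5, 10 and 16, at 74.8, 68.05 and 79.1, were called in all 3 starved libraries. Among all fed sites with a rank of 60 to 70, 66.9% were called in all 3 starved libraries. In narrower ranges this share was 81.2% at 65 to 70, the range of site 10. It was 95.8% at 70 to 75, that of site 5, and 99.0% at 75 to 80, that of site 16. Ces2 site 15 was apart from this order in one direction. In the other direction were Ces2 site 3 and Ces1 site 4, called in all 3 starved libraries at mean fed ranks of 42.3 and 51.1. Among all fed sites, 2.15% of those at a rank of 40 to 50 and 17.9% of those at 50 to 60 were so called. In narrower ranges it was 1.15% at 40 to 45, that of Ces2 site 3, and 9.67% at 50 to 55, that of Ces1 site 4. Ces2 site 14, at 55.3, was also called in all 3 starved libraries, where the share at 55 to 60 was 25.5%. Ces1 site 3 and Ces2 sites 8 and 13, at 37.5, 38.9 and 39.5, each had a peak in 1 starved library. At a rank of 35 to 40, 27.1% of all fed sites had a peak in any starved library. Ces1 site 9, at 50.5, also had a peak in 1 starved library, where the mean at 50 to 55 was 1.24.

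**Figure D4:**
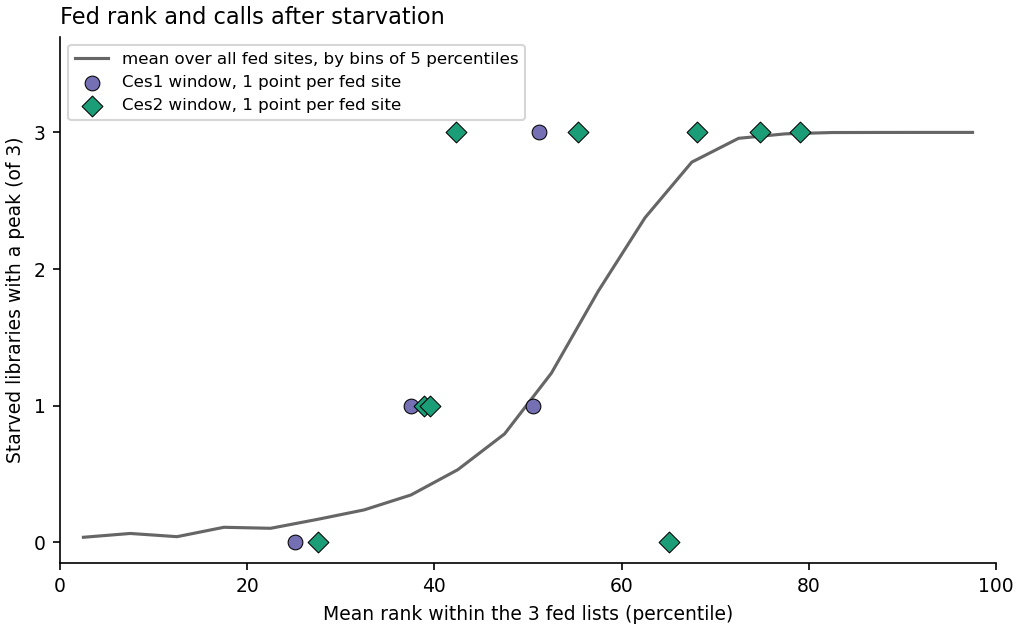
Mean rank within the fed lists (percentile) against the number of starved libraries with a peak, with 1 point for each of the 13 fed sites of the Ces1 window (circles) and the Ces2 window (diamonds); the line is the mean over all 44909 fed sites in bins of 5 percentiles. Ces2 site 15, at 65.0 on the x axis and 0 starved libraries, lies below the line, and Ces2 site 3, at 42.3 and 3 starved libraries, lies above it.

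The calls changed when the difference in list length was taken away by keeping the 23926 best-scored peaks of each list. In the Ces2 window 4 sites were then called in all 3 fed lists, of which sites 5, 10 and 16 were in all 3 starved lists and site 15 in none. Over the genome, 1.2% of the 21707 sites in all 3 such fed lists had no starved peak and 88.9% were in all 3 starved lists. Ces2 site 15 kept its fed peaks because they stood at places 21485, 19076 and 20716 from the top of the full fed lists. With no starved peak in the full lists, it could gain none here. The locus was chosen for this site's calls and ranks, so its calls at equal length are no separate evidence. In the Ces1 window 0 sites were left in any fed list. The peaks at Ces1 site 4, inside Ces1e, stood at places 29111, 26654 and 30202 in the fed lists and 18032, 19660 and 15969 in the starved lists, so that with equal lengths this site was called in all 3 starved and no fed library. That held for 103 of the 20149 sites in all 3 starved lists of equal length (0.511%). A score limit of 30.4, the median over all lists, gave the reverse at Ces1 site 4. Its scores in the fed lists, 30.5, 31.6 and 45.4, lay above that limit. Those in the starved lists, 22.2, 10.5 and 28.4, lay below it. Which group kept this site thus depended on the cutoff, and neither outcome shows a change in binding. Lists of equal length compare order within a list, and a site's place also moves with what else was called.

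At the 6 sites called in every library, the peaks were mostly narrower in the starved lists. Their median width was 410, 317 and 447.5 bp in the fed libraries and 287, 187 and 292 bp in the starved libraries. Every starved median was lower than every fed one. The median ranks of these 6 sites were also lower in the starved lists, at 43.2, 15.5 and 45.8 against 62.3, 52.3 and 71.8 in the fed lists. Widths and median ranks over all sites of the genome called in all 6 libraries were not computed. Neither narrower peaks nor lower ranks are therefore shown to be particular to these sites. Over all peaks the medians were 385, 374 and 352 bp in the fed and 352, 247 and 290.0 bp in the starved lists, so starved 1 was as wide as fed 3 there.

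Counted by gene, 5 of the 10 listed genes (Ces1d, Ces1e, Ces1g, Ces2a and Ces2h) had an annotated end with a fed site no more than 5 kb away, where 57.1% of 21900 protein-coding genes did. Ces1d and Ces1e share theirs, so that these are not independent. Ces2a was the 1 gene of the 5 with no starved peak at such a site, where 16% of all genes with a fed site had none. Ces2h was the 1 gene of the 5 with such a site in all 3 starved libraries, where 63.4% of all genes with a fed site had one. Ces1f and Ces2e had a site in fed libraries only, in 1 and 2 of them, and Ces2b, Ces2c and Ces2g had none.

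A list of 27 other genes, all of which matched the annotation, was counted in the same way. It held hydrolases of esters, triglycerides and epoxides, lipid droplet proteins, and genes of triglyceride synthesis (Dgat1, Dgat2), lipoprotein assembly (Apob, Mttp) and oxidation (Fmo5, Por). A fed site lay within 5 kb of an end in 24 of them, and 21 of these had a starved peak at such a site. At least 1 such site was called in all 3 starved libraries for 16 of the 24. The 3 genes without a starved peak had 1 fed site each. Lipc, the hepatic lipase, had its site at 70947633 to 70947867 on chromosome 9, with ranks of 3.65, 16.8 and 33.4. Pon2, a paraoxonase, had its site at 5298017 to 5298679 on chromosome 6, with ranks of 29.7, 27.5 and 56.5. Ephx2, the soluble epoxide hydrolase, had its site at 66082135 to 66082521 on chromosome 14, with ranks of 30.9, 8.34 and 38.3. Each of these ranks is from the fed lists 1 to 3. Pnpla2, the adipose triglyceride lipase, had its best site in all 6 libraries, at 89.7, 91.6 and 93.98 in the fed and 90.02, 68.7 and 76.01 in the starved lists.

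The genes with the pattern most like that of 1 listed gene of each cluster, the one with the highest mean fed rank at a site within 5 kb of an annotated end, were sought over 15135 protein-coding genes with a site within 5 kb, by the mean absolute difference of the best site's rank over the 6 lists (0 where no peak was called). Site 4, inside Ces1e, ranked higher than the sites of Ces1g but lay farther from the gene's ends. For Ces1g these genes were Acbd5, Tsr1 and Cyp2j9, at mean differences of 1.01, 1.03 and 1.05 percentiles. For Ces2h, whose best site is Ces2 site 16, they were Tmem170b, Taar8a and Rpl3, at 2.37, 2.61 and 2.80 percentiles. These differences were not tested.

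The members nearest to each limit of the windows and the next sites outside were as follows. The outermost member of the Ces1 window, Ces1 site 1, lay 265 bp inside its left limit and was called in fed 3 alone at a rank of 3.45. The next site outside (93140668 to 93141148), 4924 bp beyond that limit, was called in all 6 libraries, at mean ranks of 79.5 in the fed and 72.9 in the starved lists. On the right, Ces1 site 9 was 19.5 kb inside the limit and the next site (93398037 to 93398616) 40.8 kb outside, called in all 6 at 71.1 and 51.2. In the Ces2 window the first site lay 28.1 kb inside, and the next on the left (104654743 to 104655570), 58.4 kb outside, was called in all 6 at 93.9 and 86.5. Ces2 site 16 was 14.8 kb inside the right limit, and the next site (105056491 to 105056733), 16.1 kb outside and at the unlisted gene Ces3a, was called in 1 fed library at 31.05.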

How the data were processed

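Per the labels' protocols, livers were snap-frozen and libraries prepared with MicroPLEX v2. The 6 peak lists were analysed; the input libraries (3 per state) were not used here. Groups and replicate numbers came from the sample titles. Each deposited list is of 1 library and holds the position, the name and a score of every peak. The sources used here do not give what the score measures; its lowest value was 2.00 to 2.10 in the 6 lists. The submitters' processing notes name mm10 as the build and, among the tools, BWA 0.7.5a, bedtools 2.17 and MACS2, without their roles. For read depth, duplicate handling and the use of the inputs nothing is stated, and the number of called peaks depends on them. Reads from near-identical tandem copies may map ambiguously, and how these were treated is not given either.

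Peaks were merged into sites at an overlap of at least 1 bp. A site counted as called in a library with at least 1 peak in it, and the best-scored of several peaks gave the rank. Ranks are percentiles of the score within a list, with tied scores given their mean rank. Gene positions came from RefSeq genes of GRCm38.p6 (49997 with a position), with no exons. Coordinates are counted from 1. The genes and lists were chosen with earlier results of these data known, so no test was run. Sites called in all 3 fed libraries were named, with the best-ranked others; the 10 listed genes were reported whatever their values, and companion genes were named where their fed sites had no starved peak, except Pnpla2, named after its values were seen. Alternatives were a stricter score limit, equal list length (23926 peaks), peak widths set to 200 bp, merging of peaks up to 500 bp apart, flanks of 10 and 50 kb, windows set by all Ces genes of an array, at least 2 of 3 libraries and leaving out each library. The merging was tested on simulated lists. Python 3.11.15, pandas 2.3.3, numpy 2.4.6 and matplotlib 3.10.9 were used.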

Additional observations from a re-analysis of the deposited data

How the results depend on the processing

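With all peaks, the Ces1 window had 4 fed sites, 1 with no starved peak and 1 in all 3 starved libraries, and the Ces2 window 9, 2 and 5. Of 84 recomputed counts, 60 stayed within 1.5 times these values, including every count with trimmed peaks, with peaks merged within 500 bp and with a flank of 10 kb. At the stricter score limit (30.4, the median over all lists) the counts were 1, 1 and 0 in the Ces1 and 4, 2 and 0 in the Ces2 window. The fed sites with no starved peak were then Ces1 site 4 and Ces2 sites 10 and 15. With equal list length the counts were 0, 0 and 0 in the Ces1 and 4, 1 and 3 in the Ces2 window. A flank of 50 kb gave 7, 2 and 2 in the Ces1 window. Windows set by all 9 and 11 Ces genes of the arrays gave 16, 4 and 9, and 17, 4 and 9, over longer windows. With at least 2 of 3 libraries the Ces2 window had 14 fed sites, 7 of them with no starved peak. Omitting single libraries gave 1 to 3 fed sites with no starved peak in the Ces1 window (3 without starved 1), and 9 to 14 fed sites and 2 to 7 with no starved peak in the Ces2 window (14 and 7 without fed 2). The cause of these changes was not tested, beyond fewer peaks or wider windows by construction. No paired analysis was possible because every result here is a count or a rank that comes from no test. Read depth is unknown, so a site without a peak was not called and is not shown to be unbound.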
